A study of Mus musculus with 4 samples.

Results

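A set of 10 genes of the cytotoxic granule, of natural killer (NK) cell receptors and of the serpins that guard cells against granule proteases was followed in iTreg cells that received FeSO4 or, as Mock, PBS. They are Gzma, Gzmb, Gzmc, Prf1 and Nkg7 (granule proteins), Klrk1, Klrd1 and Klrg1 (receptors), and Serpinb9 and Serpina3g (protease inhibitors). All 10 were found by symbol among the 47729 gene rows of the count table. The genes were chosen by a rule that used their values in these same 4 libraries, so their differences between FeSO4 and Mock are given as a description. No p-value is printed for them, and the counts of calls among them are not read as a result. iTreg cells are CD4 T cells that turn on Foxp3, the defining factor of regulatory T cells, in culture. The comparison addresses how added iron changes their transcripts. The labels give C57BL/6 mice and spleen, while the methods describe naive CD4 T cells purified from both spleen and lymph nodes. Per the methods, the cells were wild type and were activated with anti-CD3 and anti-CD28, and both groups received TGF-β, IL-2 and blocking antibodies to IL-4 and IFN-γ. The FeSO4 group also received ferrous sulfate at 50 µM for 4 days, and the Mock group PBS for 4 days, with 2 libraries in each. No sort of the cultured cells on Foxp3 is described for these libraries. The study states that age-matched young adult mice were used.

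Cytotoxic lymphocytes store granzymes, which are serine proteases, together with perforin (Prf1) in secretory granules bound to the proteoglycan serglycin. Perforin opens the way for granzymes into a target cell, where granzyme B (Gzmb) starts apoptosis. Regulatory T cells can use the same granules to suppress other cells. NKG2D (Klrk1) and CD94 (Klrd1) are lectin-like receptors of NK cells and activated T cells that read stress-induced and MHC-like ligands, and KLRG1 binds cadherins. Serpinb9 inhibits granzyme B, and Serpina3g (also called Spi2A) inhibits lysosomal cathepsins, so both can protect the cell that carries such proteases.

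The libraries held from 35183187 to 40859178 reads assigned to genes, and a count of 3, the most that a count of 0 allows, equaled 0.0717 to 0.0876 CPM (read counts scaled to a common library size). By edgeR's quasi-likelihood test, 2676 of 13732 tested genes (19.5%) differed between FeSO4 and Mock at an adjusted p under 0.05, 10.6% higher and 8.89% lower in FeSO4. Of these calls 54.4% were upward, against 34.9% when libraries were scaled by size only, which moved the median of all genes by -0.065 on the log2 scale. Mock replicate 1 stood apart in part, with 19427 genes detected against 17639 to 18597 in the others and with 164 reads of the myeloid gene Lyz2 against at most 8. The CD4 T and Treg cell markers summed to between 3400 and 3700 CPM in each library. Of these 6 genes, Cd3g rose (0.50 on the log2 scale, adjusted p = 4.34e-05) and Foxp3, whose exons overlap those of neighboring genes, fell in FeSO4 (-0.60 ± 0.09 on the log2 scale, SE, adjusted p = 0.000469). The summed NK cell markers stayed between 1 and 1.37 CPM, and 4 of 6 (Ncr1, Klrb1c, Klra8 and Klra4) were at 0 in all libraries. The sum thus came from Eomes and Fcgr3. Fcgr3 had 3 reads in each Mock library against 5 and 18 in FeSO4 and was not tested. The CD8 T cell markers summed to 9.81 and 9.04 CPM in Mock, against 9.95 and 11 CPM in FeSO4. Cd8a was at 2.32 and 0.646 CPM in Mock, against 0.73 and 1.27 CPM in FeSO4 (log2 fold change -0.56). Cd8b1 was at 7.49 and 8.39 CPM in Mock, against 9.22 and 9.75 CPM in FeSO4 (0.26), and neither passed. The sums of the marker lists of B, myeloid and erythroid cells were higher in FeSO4, each mainly through its 1 called gene. The part of these cells in the results was not tested. The B cell list summed to 169 and 162 CPM in Mock, against 248 and 277 CPM in FeSO4, with Ighm the 1 called gene of 5 and Ms4a1 at no more than 1 read. Cd79a and Cd79b had log2 fold changes of -0.13 and -0.54 and did not pass. The myeloid list summed to 99.7 and 89.6 CPM in Mock, against 117 and 120 CPM in FeSO4, with Cst3 the 1 called gene of 6. Cst3 alone was at 93.5 and 87.1 CPM in Mock, against 115 and 118 CPM in FeSO4. Lyz2 went the other way, with 164 and 8 reads in Mock and 0 in both FeSO4 libraries, and was not tested. Cd68 and Adgre1 had log2 fold changes of -0.18 and 0.39 and did not pass. The erythroid list, with 2 of 4 markers matched, summed to 24.9 and 19.8 CPM in Mock, against 37.6 and 32.6 CPM in FeSO4, with Hba-a1 the 1 called gene. The other matched marker, Alas2, had 16 and 6 reads in Mock against 4 and 6 in FeSO4. Its groups overlapped and it was not tested. The mast cell and basophil list held at most 0.12 CPM, and the gamma-delta T and NKT cell list, with 2 of 4 matched, at most 0.419 CPM.

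Most of the 10 genes had few reads. Serpina3g was at 32 to 118 CPM, Serpinb9 at 12.4 to 21.3 CPM and Prf1 at 5.13 to 7.57 CPM. Gzmb, Nkg7, Klrk1 and Klrd1 lay between 0.641 and 4.46 CPM. Gzmc and Gzma had at most 15 reads in any library, and Klrg1 had 0 in all 4. Per kilobase of exon, the scale on which levels of different genes can be compared, Serpina3g stood highest in Mock at 13.9 and 14.8 CPM, and Prf1 was at 3.68 and 3.64 CPM. Serpinb9 (3.55 and 3.69 CPM per kilobase) and Nkg7 (2.98 and 4.55) overlapped Prf1 on this scale in Mock. Gzmb followed at 1.29 and 0.894 CPM per kilobase, then Klrd1 at 0.5 and 0.859 and Klrk1 at 0.166 and 0.177. In FeSO4 the order per kilobase was Serpina3g (51 and 41.7), Serpinb9 (6.11 and 4.84), then Prf1 (2.73 and 2.5), Nkg7 (2.43 and 3.02), Klrd1 (1.75 and 3.48) and Gzmb (2.06 and 2.27), of which Prf1, Nkg7 and Klrd1 overlapped among themselves and Gzmb overlapped Klrd1 alone. Klrk1 came below them at 0.507 and 0.519.

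**Figure D1:**
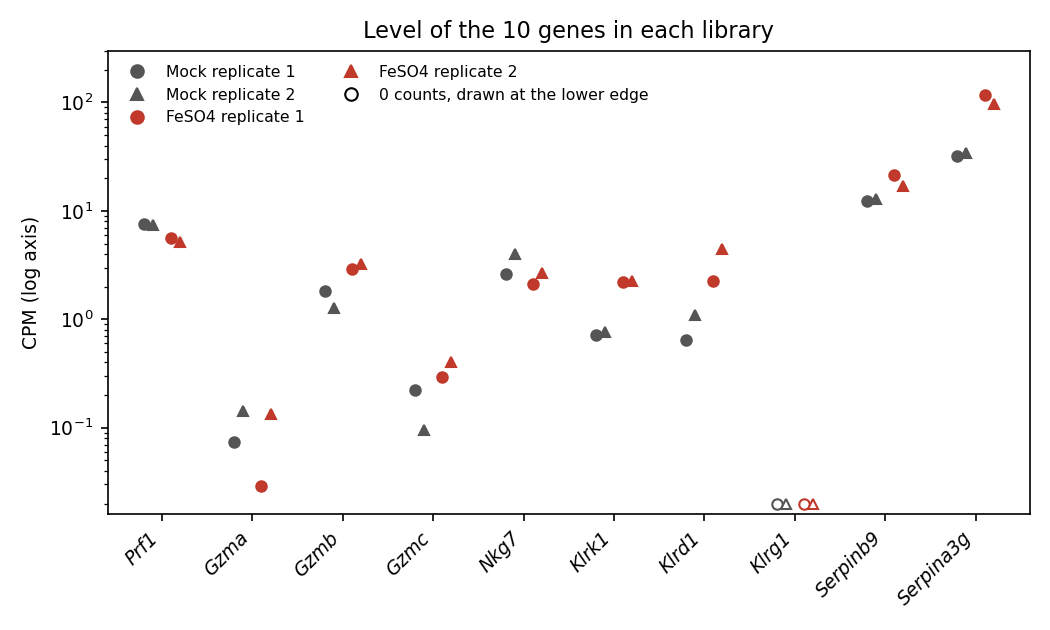
Level of the 10 genes in each library in CPM on a log axis. Gray symbols are Mock, red symbols FeSO4, circles replicate 1 and triangles replicate 2, and open symbols mark 0 counts. Serpina3g, Serpinb9, Klrk1, Klrd1, Gzmb and Gzmc have both red symbols above both gray ones, Prf1 has both below, and Nkg7 and Gzma overlap.

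Serpina3g carried most of the reads of these genes. The 10 genes summed to 58.1 and 61.8 CPM in Mock, against 154 and 131 CPM in FeSO4. Serpina3g alone made up 55.1% and 55.2% of this sum in Mock and 76.6% and 73.4% in FeSO4. The 8 granule and receptor genes together summed to 13.7 and 14.8 CPM in Mock, against 15.4 and 18.2 CPM in FeSO4. The sum of those 8 genes was thus higher in both FeSO4 libraries, but by far less than the sum of the serpins. In bulk RNA, a change in the share of cells that express a gene and a change in RNA per cell cannot be told apart.

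Of the 10 genes, 8 passed the filter on low counts, and Gzma and Klrg1 did not. Gzmc, with 9 and 4 reads in Mock against 10 and 15 in FeSO4, passed only through its FeSO4 libraries. At an adjusted p under 0.05, 5 of the 8 were called higher (Gzmb, Klrk1, Klrd1, Serpinb9 and Serpina3g), beside 10.6% of all tested genes. None was called lower by the main edgeR fit, DESeq2 or limma-voom, and 1, Prf1, was lower at an unadjusted p under 0.05 in that edgeR fit. At the threshold used in the study (unadjusted p under 0.05 with a log2 fold change beyond 0.5 in either direction), the same 5 genes were called, beside 4.47% of all tested genes in that direction. In 7 of the 8 the libraries of the groups did not overlap, and this held for 59.5% of all tested genes. Since the genes were selected on this contrast, nothing is read from these shares. DESeq2, and edgeR with all genes of at least 1 count, called 4 of the 8, without Gzmb. With library size only, Gzmb was not called and Prf1 was called lower. Without Mock replicate 2, Gzmb and Klrk1 were not called, without FeSO4 replicate 1, Gzmb and Serpinb9 were not, and without FeSO4 replicate 2, Gzmb was not.

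**Figure D2:**
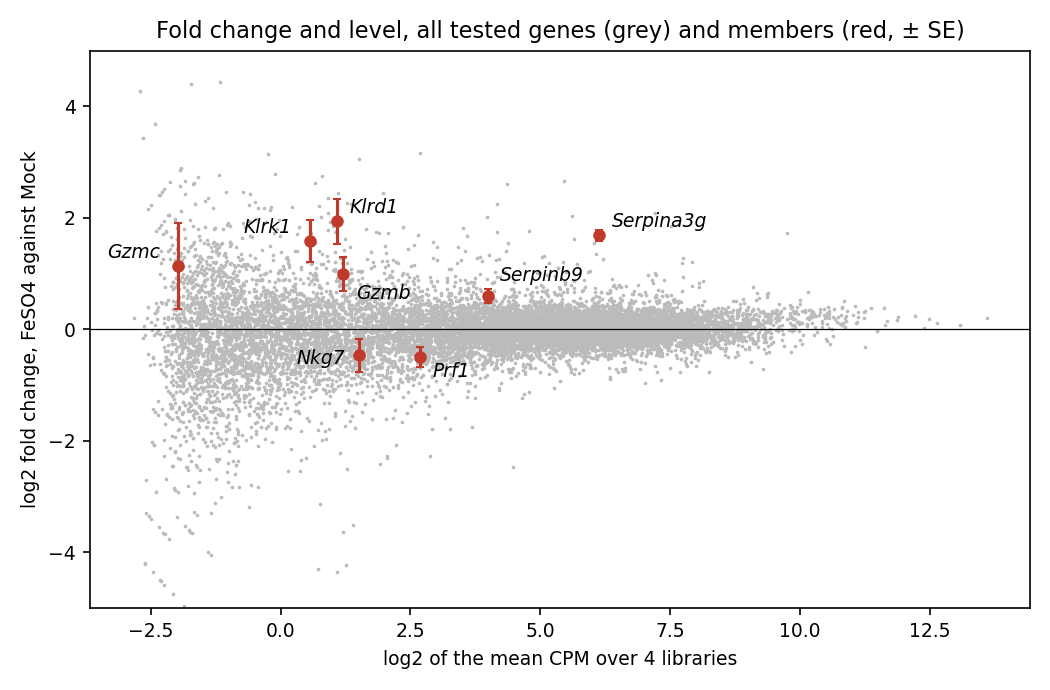
Log2 fold change of FeSO4 against Mock (y axis, cut at -5 and 5) against the log2 of the mean CPM over the 4 libraries (x axis) for all tested genes, with the 8 tested genes of the granule, receptor and serpin set in red with their SE. Klrd1, Serpina3g and Klrk1 rank 68, 110 and 126 from the top among 13732 genes, and Nkg7 and Prf1 lie below 0.

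Among the granule proteins, Prf1, which encodes the pore former, was lower in FeSO4. Prf1 (ENSMUSG00000037202, chromosome 10 at 61297751 to 61304684 in GRCm38) had 307 and 313 reads in Mock against 192 and 190 in FeSO4. This equaled 7.57 and 7.48 CPM in Mock, against 5.6 and 5.13 CPM in FeSO4, so both FeSO4 libraries lay below both Mock libraries. The means were 7.53 ± 0.0578 and 5.37 ± 0.333 CPM (SD, n = 2 each), and the fitted log2 fold change was -0.49 ± 0.18 (SE). The value stayed between -0.55 and -0.43 under all alternatives.

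Gzmb (ENSMUSG00000015437, chromosome 14 at 56258836 to 56262334) went the other way. It had 74 and 53 reads in Mock against 100 and 119 in FeSO4, or 1.82 and 1.27 CPM in Mock, against 2.92 and 3.21 CPM in FeSO4. The means were 1.55 ± 0.393 and 3.07 ± 0.209 CPM (SD, n = 2 each), and the fitted log2 fold change was 0.99 ± 0.31 (SE). It was 1.26 without Mock replicate 1 and 0.75 without Mock replicate 2. Gzmb and Prf1, whose products act together on a target cell, thus had log2 fold changes of opposite sign in these libraries.

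Apart from Gzmm, the other granzymes were barely present. Gzmc (ENSMUSG00000079186, chromosome 14 at 56231397 to 56241647), 17.2 kb from Gzmb, was at 0.222 and 0.0957 CPM in Mock, against 0.292 and 0.405 CPM in FeSO4 (log2 fold change 1.13 ± 0.77, SE). The value was 1.82 without Mock replicate 1 and 0.65 without Mock replicate 2. Gzmd, Gzme, Gzmf, Gzmg and Gzmn, which share its gene cluster, had 0 reads in every library. Gzma (ENSMUSG00000023132, chromosome 13 at 113093824 to 113100981), a tryptase, had 3 and 6 reads in Mock against 1 and 5 in FeSO4, so its groups overlapped near the detection limit. Its neighbor Gzmk, 70.6 kb away, had 12 and 3 reads in Mock against 1 and 4 in FeSO4. Granzymes of a cluster are close copies, and the table lists reads with more than 1 alignment apart from the genes, so these counts may be too low. Gzmm, the 1 other granzyme that passed the filter, was at 1.08 and 1.77 CPM in Mock, against 0.496 and 1.22 CPM in FeSO4, with no call (-0.73 ± 0.49, SE, adjusted p = 0.327).

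Nkg7 (ENSMUSG00000004612, chromosome 7 at 43437138 to 43438246) encodes a granule membrane protein that takes part in degranulation. It had 106 and 167 reads in Mock against 73 and 98 in FeSO4, or 2.61 and 3.99 CPM in Mock, against 2.13 and 2.65 CPM in FeSO4. FeSO4 replicate 2 lay above Mock replicate 1, so the groups overlapped. The log2 fold change was -0.47 ± 0.30 (SE), with -0.75 without Mock replicate 1 and -0.13 without Mock replicate 2.

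The rest of the granule machinery was mixed in direction. Of 24 listed granule genes, 23 were matched and 17 tested, of which 4 were higher, 2 were lower and 11 did not pass. Among all tested genes, 10.6% were higher and 8.89% lower. The median log2 fold change of the list was 0.03, beside -0.000455 for all tested genes. Srgn, which encodes the serglycin core that binds granzymes, rose from 78.9 and 74 CPM in Mock to 112 and 121 CPM in FeSO4 (0.61 ± 0.07, SE, adjusted p = 5.15e-05). Stx11, a syntaxin needed for granule release, rose from 24.1 and 23.8 CPM to 33.1 and 34.7 CPM (0.50 ± 0.09, SE, adjusted p = 0.00162). Cst7, the cathepsin inhibitor cystatin F, rose from 10.7 and 7.51 CPM to 14.7 and 12.3 CPM (0.57 ± 0.17, SE, adjusted p = 0.0314). Calr, a calcium-binding chaperone also found in granules, rose from 579 and 594 CPM to 699 and 688 CPM (0.24 ± 0.06, SE, adjusted p = 0.00828). Cst7 lost its call with library size only and without Mock replicate 2 or FeSO4 replicate 1.

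Igf2r, a mannose 6-phosphate receptor that sorts granzymes and other enzymes to lysosomes, fell from 251 and 272 CPM in Mock to 147 and 159 CPM in FeSO4 (-0.77 ± 0.07, SE, adjusted p = 2.56e-06). Lamp1, a granule and lysosome membrane protein, fell from 189 and 179 CPM to 155 and 166 CPM (-0.20 ± 0.07, SE, adjusted p = 0.0492), close to the threshold, and lost its call with all genes of at least 1 count (adjusted p = 0.0663) and without any 1 of the libraries (0.0566 to 0.323). Its exons overlap those of Grtp1 on the opposite strand, and the strand setting of the counting is not given in the sources used here. The docking factors Rab27a and Unc13d had log2 fold changes of 0.05 and -0.09, and cathepsin W (Ctsw) had -0.13, none of which passed (adjusted p = 0.633, 0.363 and 0.149).

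The soluble and membrane-bound killing ligands were also mixed. All 6 listed genes were tested, of which 2 were higher, 1 was lower and 3 did not pass (median -0.03). Among all tested genes, 10.6% were higher and 8.89% lower. Ifng, the type 1 effector cytokine, rose from 2.61 and 3.32 CPM in Mock to 11.2 and 8.08 CPM in FeSO4 (1.69 ± 0.22, SE, adjusted p = 9.41e-05). Fasl, which triggers the death receptor Fas, rose from 1.73 and 1.89 CPM to 3.04 and 3.76 CPM (0.91 ± 0.29, SE, adjusted p = 0.0384), but this call was lost with DESeq2, with library size only, with all genes of at least 1 count and without 3 of the 4 libraries (each except FeSO4 replicate 1). Tnf fell from 110 and 98 CPM to 62.1 and 52.5 CPM (-0.86 ± 0.09, SE, adjusted p = 1.2e-05). Tnfsf10, Lta and Ltb had log2 fold changes of -0.18, -0.10 and 0.04 and did not pass.

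Both detected NK receptors of the set were higher in FeSO4. Klrk1 (ENSMUSG00000030149, chromosome 6 at 129610323 to 129623903), which encodes the activating receptor NKG2D, had 29 and 32 reads in Mock against 75 and 83 in FeSO4. This equaled 0.715 and 0.765 CPM in Mock, against 2.19 and 2.24 CPM in FeSO4, with the libraries of each group close together. The means were 0.74 ± 0.0357 and 2.22 ± 0.0376 CPM (SD, n = 2 each), 2.99-fold apart, with a log2 fold change of 1.58 ± 0.38 (SE).

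Klrd1 (ENSMUSG00000030165, chromosome 6 at 129588092 to 129598775) encodes CD94, which forms dimers with NKG2 chains, and lies 11.5 kb from Klrk1. It had 26 and 46 reads in Mock against 77 and 165 in FeSO4. These equaled 0.641 and 1.1 CPM in Mock, against 2.25 and 4.46 CPM in FeSO4, so the groups did not overlap but the FeSO4 libraries differed 1.98-fold between themselves. The means were 0.87 ± 0.325 and 3.35 ± 1.56 CPM (SD, n = 2 each), and the log2 fold change was 1.94 ± 0.40 (SE). It was 1.36 without FeSO4 replicate 2 and 2.38 without Mock replicate 2. Klrg1 (ENSMUSG00000030114, chromosome 6 at 122270596 to 122282833), an inhibitory receptor 7310 kb from Klrd1, had 0 reads in all 4 libraries, which allows at most 0.0876 CPM.

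The genes beside Klrd1 in the NK gene complex had few reads. Klrc1, which encodes the CD94 partner NKG2A, had 12 and 25 reads in Mock against 34 and 35 in FeSO4 and was not called (1.11 ± 0.56, SE, adjusted p = 0.19). Klrc2, which encodes the partner NKG2C, had 5 and 0 reads in Mock against 12 and 21 in FeSO4 and was not called (2.85 ± 0.98, SE, adjusted p = 0.0524). Klrc3 had 0 and 1 reads in Mock against 1 and 4 in FeSO4, and Klre1, which lies 2.26 kb from Klrd1, had 0 and 0 in Mock against 1 and 2 in FeSO4, both too few to be tested. Klri2, a lectin-like receptor that pairs with Klre1 and lies 130 kb from Klrd1, rose from 0.246 and 0.335 CPM in Mock to 0.992 and 1.32 CPM in FeSO4 (1.98 ± 0.56, SE, adjusted p = 0.0223). Klrc2 and Klri2 passed the filter on low counts only through their FeSO4 libraries. The call of Klri2 was lost without Mock replicate 1, Mock replicate 2 or FeSO4 replicate 2.

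**Figure D3:**
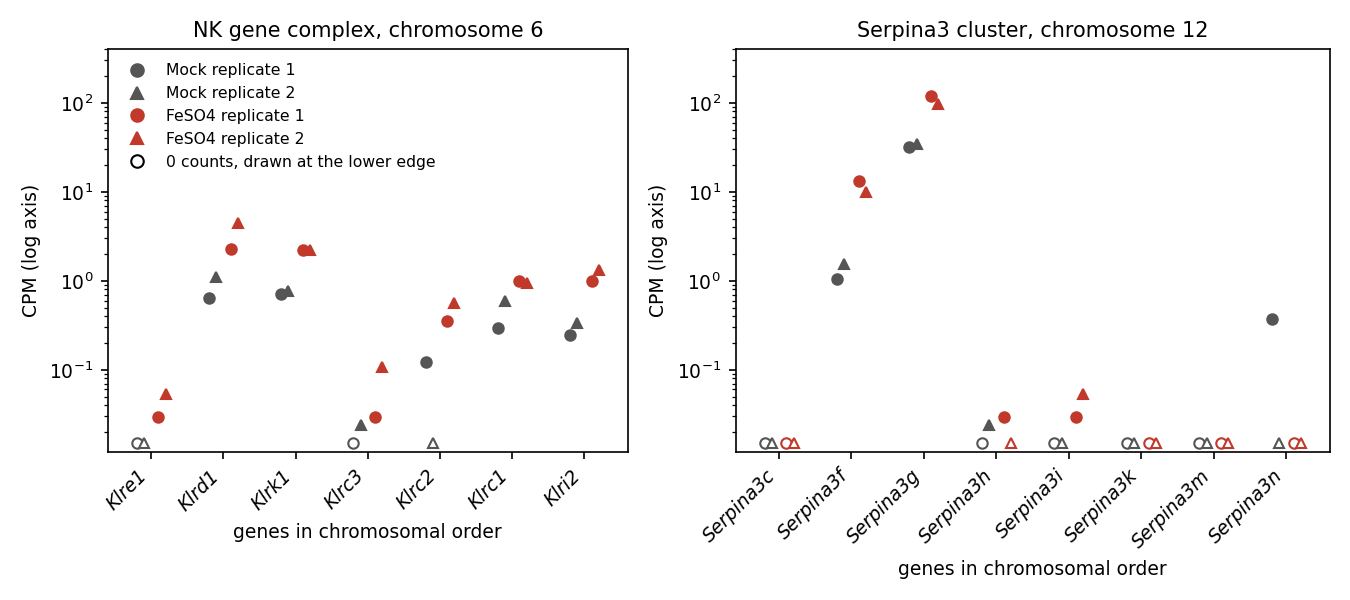
CPM per library (log axis) of Klrd1, Klrk1 and their neighbors on chromosome 6 and of the Serpina3 genes on chromosome 12, in chromosomal order, with open symbols for 0 counts. Red FeSO4 symbols lie above gray Mock symbols for Klrd1, Klrk1, Klrc2, Klrc1 and Klri2 and for Serpina3f and Serpina3g, while Serpina3c, Serpina3k and Serpina3m are at 0 in all libraries.

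Of 31 listed further NK receptors and adaptors, 30 were matched and 10 tested. Of the 10, 3 were higher, 1 was lower and 6 did not pass (median 0.25). Among all tested genes, 10.6% were higher and 8.89% lower. Of the adaptors, Hcst (DAP10), through which NKG2D signals, rose from 20.5 and 18.7 CPM in Mock to 24.3 and 26.6 CPM in FeSO4 (0.38 ± 0.11, SE, adjusted p = 0.0206). The other NKG2D adaptor, Tyrobp (DAP12), had 10 reads in Mock replicate 1 and 0 in the other libraries. Sh2d1a, the adaptor SAP of the SLAM receptors, rose from 26.2 and 26.9 CPM to 34.7 and 40.4 CPM (0.50 ± 0.10, SE, adjusted p = 0.00248). Cd244, a SLAM family receptor (2B4) that uses this adaptor, fell from 1.23 and 1.17 CPM to 0.234 and 0.324 CPM (-2.09 ± 0.55, SE, adjusted p = 0.0147). Cd244 passed the filter only through its Mock libraries. Its call was lost without either Mock library, and that of Hcst without Mock replicate 2 or FeSO4 replicate 2.

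The ligands of the 3 receptors could be read only in part, since 5 had no match by symbol. Of 13 listed ligand genes, 8 were matched and 3 tested. Of these 3, 1 was higher and none was lower, beside 10.6% higher and 8.89% lower among all tested genes. At an unadjusted p under 0.05, in DESeq2 and in limma-voom, 0 were lower as well. H2-T23, which encodes the CD94 ligand Qa-1, rose from 164 CPM in both Mock libraries to 212 CPM in both FeSO4 libraries (0.37 ± 0.06, SE, adjusted p = 0.00079). Its exons overlap those of BC023719 on the opposite strand. The cadherin genes Cdh1 and Cdh2, whose products bind KLRG1, had log2 fold changes of 0.21 and -1.05 and did not pass (adjusted p = 0.425 and 0.178).

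The 2 serpins had the most reads of the set and were higher in FeSO4. Serpinb9 (ENSMUSG00000045827, chromosome 13 at 32997061 to 33017955), the granzyme B inhibitor, had 503 and 539 reads in Mock against 731 and 626 in FeSO4. These equaled 12.4 and 12.9 CPM in Mock, against 21.3 and 16.9 CPM in FeSO4, so the groups did not overlap. The means were 12.6 ± 0.348 and 19.1 ± 3.13 CPM (SD, n = 2 each), and the log2 fold change was 0.60 ± 0.13 (SE). The value dropped to 0.42 when FeSO4 replicate 1 was left out and reached 0.75 when FeSO4 replicate 2 was. Its neighbor Serpinb9b, 9.46 kb away, had 4 reads in FeSO4 replicate 1 and 0 elsewhere.

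Serpina3g (ENSMUSG00000041481, chromosome 12 at 104236147 to 104241939) had 1300 and 1426 reads in Mock against 4028 and 3561 in FeSO4. These equaled 32 and 34.1 CPM in Mock, against 118 and 96.2 CPM in FeSO4, the widest gap in CPM of the set. The means were 33.1 ± 1.46 and 107 ± 15.1 CPM (SD, n = 2 each), 3.23-fold apart. The log2 fold change was 1.69 ± 0.10 (SE) and stayed between 1.54 and 1.83 under all alternatives.

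Serpina3f, a clade A serpin 15 kb from Serpina3g and not a gene of the chosen set, rose as well. It had 43 and 64 reads in Mock against 456 and 369 in FeSO4, or 1.06 and 1.53 CPM in Mock, against 13.3 and 9.97 CPM in FeSO4. Its means of 1.3 ± 0.333 and 11.6 ± 2.36 CPM (SD, n = 2 each) were 8.99-fold apart, or 3.16 ± 0.24 on the log2 scale (SE, adjusted p = 5.78e-07). The value lay between 2.91 and 3.45 under all alternatives and the call was kept in each. The other Serpina3 genes of the cluster were at or near 0. Serpina3h, 5.96 kb from Serpina3g, had at most 1 read in any library, Serpina3i had 0 in Mock against 1 and 2 in FeSO4, and Serpina3n had 15 reads in Mock replicate 1 alone. Serpina3 genes are close copies, and reads with more than 1 alignment are listed apart from the genes, so the level of each may be too low.

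The promoters of Serpina3g and Serpina3f are shown because these neighbors were both higher in FeSO4, beside those of Klrk1, which was higher, and Prf1, which was lower. Each runs from 250 bases before to 50 bases after a start site listed by RefSeq, 5′ to 3′ on the strand of the gene (RefSeq, GRCm38.p6). Capitals mark matches, on either strand, to TTCNNNGAA (the STAT motif), TGTGGT (Runx), AGGTGT (T-box) and ACGTG (the core of the HIF motif). The windows are chr12:104235897-104236196 (plus strand) for Serpina3g, chr12:104214294-104214593 (plus strand, the first of 2 listed starts) for Serpina3f, chr6:129623815-129624114 (minus strand) for Klrk1 and chr10:61297586-61297885 (plus strand) for Prf1. The start sites used for Klrk1 and Prf1 lie inside the outermost gene coordinates given above. So do those used for Serpinb9 and Gzmc in the motif counts below, and further inside. Their windows are chr13:33004291-33004590 (plus strand) and chr14:56234608-56234907 (minus strand).
Serpina3g: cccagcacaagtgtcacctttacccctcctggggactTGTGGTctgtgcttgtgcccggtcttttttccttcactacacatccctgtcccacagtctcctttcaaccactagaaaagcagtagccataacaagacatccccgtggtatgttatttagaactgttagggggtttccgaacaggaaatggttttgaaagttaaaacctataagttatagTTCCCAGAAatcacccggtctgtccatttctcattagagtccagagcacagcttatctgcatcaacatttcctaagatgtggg
Serpina3f: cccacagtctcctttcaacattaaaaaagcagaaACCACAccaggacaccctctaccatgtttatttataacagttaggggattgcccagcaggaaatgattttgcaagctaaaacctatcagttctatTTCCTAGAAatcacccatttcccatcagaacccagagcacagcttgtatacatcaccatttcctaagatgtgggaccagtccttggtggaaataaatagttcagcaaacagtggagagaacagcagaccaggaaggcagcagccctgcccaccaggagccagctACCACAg
Klrk1: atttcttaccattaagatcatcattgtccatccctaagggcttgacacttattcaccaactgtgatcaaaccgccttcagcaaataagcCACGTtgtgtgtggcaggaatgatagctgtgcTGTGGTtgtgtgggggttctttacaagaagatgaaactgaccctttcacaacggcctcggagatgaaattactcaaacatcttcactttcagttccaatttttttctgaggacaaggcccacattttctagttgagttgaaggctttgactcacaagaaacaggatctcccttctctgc
Prf1: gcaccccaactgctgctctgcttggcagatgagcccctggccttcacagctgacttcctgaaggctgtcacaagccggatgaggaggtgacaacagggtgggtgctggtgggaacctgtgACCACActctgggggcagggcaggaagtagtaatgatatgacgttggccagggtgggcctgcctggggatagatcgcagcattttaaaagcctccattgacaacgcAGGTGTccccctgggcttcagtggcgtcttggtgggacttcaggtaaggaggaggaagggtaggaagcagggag

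The Serpina3g and Serpina3f windows aligned over 214 columns with 79% identical bases. The stretch they share holds a STAT motif match in each, TTCCCAGAA at position -33 in Serpina3g and TTCCTAGAA at position -121 in Serpina3f, counted from the start site to the first base of the match. Klrk1 has a Runx match at -129 and a HIF core match at -161, and Prf1 a Runx match at -130 and a T-box match at -24. No promoter entry was at hand for Klrd1 and Klrg1. Among the 8 genes of the set with an entry, the STAT motif occurred in 3 (Nkg7, Serpina3g and Gzmb), against 8.3% of all 32851 promoters of this length. The T-box motif occurred in 4 of 8 (Nkg7, Prf1, Gzma and Gzmc), against 13.7%, and the HIF core in 1 of 8 (Klrk1), against 19.6%. The Runx motif occurred in all 8, against 16.8% of all promoters. These 8 were Klrk1, Nkg7, Prf1, Serpina3g, Serpinb9, Gzma, Gzmc and Gzmb. These matches describe letters in the windows and were not tied to binding or to the change in expression.

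The other serpins did not share a direction. Of 33 listed, all were matched, 14 had 0 reads in every library and 8 were tested. Of the 8, 3 were higher, 3 were lower and 2 did not pass (median -0.06). Among all tested genes, 10.6% were higher and 8.89% lower. Besides Serpina3f, the higher serpins were Serpinb6a and Serpinb6b of clade B. The clade B gene Serpinb1a went from 5.89 and 4.16 CPM in Mock to 4.32 and 3.57 CPM in FeSO4. It did not pass (-0.35 ± 0.24, SE, adjusted p = 0.341). Serpinb6a rose from 38.6 and 31.1 CPM in Mock to 50.9 and 46.9 CPM in FeSO4 (0.49 ± 0.10, SE, adjusted p = 0.00407), and its exons overlap other genes on the opposite strand, among them Nqo2 and Ripk1. Its call was lost without Mock replicate 2. Serpinb6b rose from 12 and 11.5 CPM to 15.3 and 16.6 CPM (0.44 ± 0.13, SE, adjusted p = 0.0244), a call lost with library size only and without Mock replicate 1, Mock replicate 2 or FeSO4 replicate 2. The lower serpins were Serpine2, Serpini1 and Serpinh1. Serpine2, an inhibitor of thrombin and plasminogen activators, fell from 13.7 and 10.6 CPM to 2.74 and 2.3 CPM (-2.27 ± 0.20, SE, adjusted p = 2.77e-06). Serpini1 (neuroserpin) fell from 7.47 and 6.38 CPM to 4.12 and 3.46 CPM (-0.87 ± 0.21, SE, adjusted p = 0.00868), a call lost without Mock replicate 1. Serpinh1, a collagen chaperone, had 45 and 15 reads in Mock and 0 in both FeSO4 libraries (adjusted p = 0.00206), at least 17.4-fold lower when 3 counts are allowed over the FeSO4 group. This limit was 8.52-fold without Mock replicate 1 and 26.4-fold without Mock replicate 2, and the gene passed the filter only through its Mock libraries.

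Transcription factors that regulate cytotoxic genes were read from the same libraries. Of 17 listed as favoring such genes, 16 were tested, of which 5 were higher, 4 were lower and 7 did not pass (median -0.05). Among all tested genes, 10.6% were higher and 8.89% lower. The rises of Zfp683, Prdm1 and Tbx21 started from few reads. Zfp683 (Hobit), a factor of tissue-resident lymphocytes, rose from 0.493 and 0.837 CPM in Mock to 3.5 and 3.78 CPM in FeSO4 (2.45 ± 0.36, SE, adjusted p = 0.000244). Prdm1 (Blimp-1) rose from 0.69 and 1.03 CPM to 2.69 and 4.05 CPM (1.97 ± 0.36, SE, adjusted p = 0.00151). Tbx21 (T-bet), the type 1 master factor, rose from 1.48 and 1.32 CPM to 5.58 and 4.13 CPM (1.79 ± 0.28, SE, adjusted p = 0.000498). Its relative Eomes, which drives cytotoxic genes in CD8 T and NK cells, was at 0.937 and 1.05 CPM in Mock, against 1.23 and 0.513 CPM in FeSO4 and was not called (-0.20 ± 0.51, SE, adjusted p = 0.832).

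Irf4 and Batf, which bind DNA together in activated T cells, rose. Irf4 went from 113 and 124 CPM in Mock to 174 and 179 CPM in FeSO4 (0.57 ± 0.07, SE, adjusted p = 4.76e-05). Batf went from 25.6 and 27.2 CPM to 42 and 44.5 CPM (0.71 ± 0.09, SE, adjusted p = 7.4e-05). The IL-2 signal transducers and Ets1 fell slightly. Stat5a went from 155 and 152 CPM to 115 and 110 CPM (-0.45 ± 0.07, SE, adjusted p = 0.00026), with exons that overlap Stat3 on the opposite strand. Stat5b fell by 0.24 ± 0.06 (SE, adjusted p = 0.0141) and Ets1 by 0.30 ± 0.07 (SE, adjusted p = 0.00533) on the log2 scale. The calls of Stat5b and Ets1 were lost without FeSO4 replicate 1, and that of Stat5b also without Mock replicate 2. Runx3, which activates Prf1 and granzyme genes in CD8 T cells, was at 177 and 187 CPM in Mock and 169 CPM in both FeSO4 libraries and did not pass (-0.11 ± 0.06, SE, adjusted p = 0.254).

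Of 7 listed factors known to hold back effector or cytotoxic genes, all tested, 4 were lower, 1 was higher and 2 (Bcl6 and Zbtb7b) did not pass. Of all tested genes, 8.89% were lower and 10.6% higher. The median log2 fold change of the list, which like the others was chosen with earlier results of these data known, was -0.32. Bach2, a repressor of effector programs, fell from 55.9 and 65.9 CPM in Mock to 30.8 and 40.7 CPM in FeSO4 (-0.77 ± 0.12, SE, adjusted p = 0.000349). Id3 fell from 98.7 and 86.6 CPM to 62.8 and 65.8 CPM (-0.53 ± 0.08, SE, adjusted p = 0.000399), also without overlap between the groups. Foxo1 fell from 189 and 204 CPM to 157 and 158 CPM (-0.32 ± 0.07, SE, adjusted p = 0.00314), and Lef1 from 162 and 147 CPM to 110 and 131 CPM (-0.36 ± 0.08, SE, adjusted p = 0.00629). The exons of Bach2 and Foxo1 overlap those of genes on the opposite strand. Tcf7, which encodes TCF-1, went against the others and rose from 469 and 459 CPM to 521 and 591 CPM (0.26 ± 0.07, SE, adjusted p = 0.0125). The call of Tcf7 was lost with library size only and without Mock replicate 2 or FeSO4 replicate 2, and that of Lef1 without FeSO4 replicate 1.

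**Figure D4:**
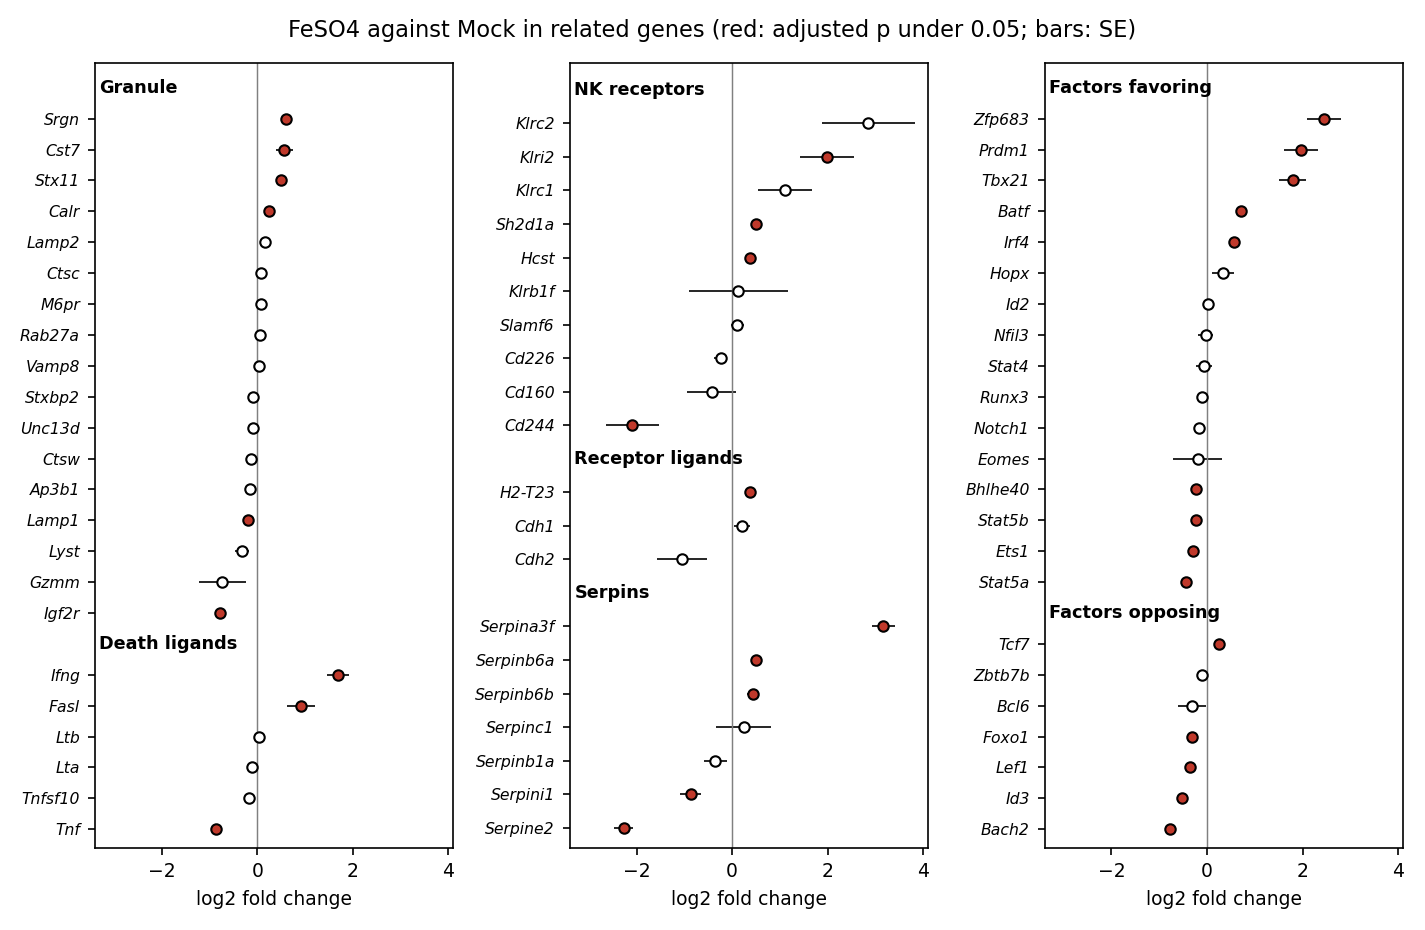
Log2 fold change of FeSO4 against Mock with its SE for the tested genes of the related lists, red where the adjusted p is under 0.05. Serpinh1, with 0 reads in both FeSO4 libraries, is left out. Serpina3f, Klrc2 (not called), Zfp683, Prdm1 and Klri2 lie near 2 or above. Serpine2 and Cd244 lie near -2 or below, and most granule machinery genes close to 0.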

How the data were processed

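RNA-seq libraries of iTreg cells (2 Mock, 2 FeSO4) were compared. The authors deposited raw read counts per Ensembl gene, not normalized. The submitters' processing notes name Trim Galore 0.6.7, STAR 2.7.9a, featureCounts and mm10, while the study's methods name mm9. The last rows of the table have the format of htseq-count, so the counting program and its treatment of shared reads are uncertain. The 14930 gene IDs of the table that are absent from the mm9-era GENCODE M1 annotation show that a later annotation was counted. Positions and promoters are therefore those of RefSeq on GRCm38.p6. Exon lengths and overlaps come from GENCODE M1. The table ends with rows of unassigned reads (each 0.802 to 6.03% of a library), which were left out.

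Counts were tested in R 4.3.3 with edgeR 4.0.16: filterByExpr by group, TMM scaling, quasi-likelihood F test, Benjamini-Hochberg adjustment over 13732 genes. CPM uses TMM-scaled library sizes, and SE is the fold change divided by the square root of F. Alternatives were DESeq2 1.42.0, limma-voom (limma 3.58.1), other ways to scale and filter, a replicate block, fits without 1 library each and the threshold of the study. Promoters were aligned with Biopython 1.88 (local, match 2, mismatch -3, gap opening -5, extension -2).

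The members and the gene lists were chosen with earlier results of these data known. Named were all 10 genes, up to 8 genes past an adjusted p of 0.05 from each list by smallest p, preset partners of the 10 genes, and defining cell type markers. A few other genes are named beside a count. The methods state that the libraries came from independent experiments in pairs, but no label ties a number to an experiment. Chi-square statistics of 11.4 (Mock) and 9.35 (FeSO4) per degree of freedom show that libraries of a group differed beyond sampling noise. The limits that a count of 0 allows cover counting error only, while the SE includes the spread between replicates.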

Additional observations from a re-analysis of the deposited data

Results flagged for a closer look

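Unassigned reads of 2 kinds made up a larger share of both FeSO4 libraries than of both Mock libraries. Reads with more than 1 alignment were 4.42% and 4.27% of the Mock libraries and 4.6% and 4.62% of the FeSO4 libraries, which put the FeSO4 mean 0.264 percentage points higher. Reads of low alignment quality were 0.802% and 0.929% in Mock and 0.978% and 0.988% in FeSO4, 0.118 percentage points higher in the mean. Neither kind is part of the gene counts. How many of them came from granzyme, lectin-like receptor or Serpina3 genes is not known from the table. Aligned reads outside every counted gene went the other way, at 5.31% and 6.03% in Mock against 4.36% and 5.21% in FeSO4.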

How the results depend on the processing

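The sign of the log2 fold change of each of the 8 tested genes was kept under every alternative run, and 0 of the 34 called genes of the related lists reversed. With library size only, 939 genes were higher in FeSO4 against 1455 with TMM. At the threshold of the study, 614 genes were higher and 766 lower, and 0 receptor ligands, 5 favoring factors and 2 opposing factors were called (1, 9 and 5 at an adjusted p under 0.05). Leaving out each library in turn gave 850 to 1165 higher and 622 to 1077 lower genes, 3 to 5 called genes of the set, 1 to 5 NK receptors and adaptors and 1 to 2 ligands, and each such fit assumes that the lone library varies like the other group. Without Mock replicate 2, 23 of the 34 list calls were kept, the fewest. The cause of these moves was not tested. The threshold of the study differs both in its fold limit and in its unadjusted p, and the fits without 1 library hold fewer libraries. Same-numbered libraries deviated together only weakly (correlation 0.0293). This value pools all tested genes and cannot decide whether the numbers mark the pairs of the methods. Since no label ties a number to an experiment, the main fit used no block. With the replicate block, 1743 genes were higher and 1467 lower, 5 genes of the set were called and 34 of the 34 list calls were kept. Depth limits Gzma, Gzmc and Klrg1, which had at most 15 reads in any library.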

Other observations

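Among list genes with at least 10 reads in Mock replicate 1, 3 had 0 in each of the other libraries. These were Serpina3n with 15 reads and Serping1 and Tyrobp with 10 each. Crtam, which encodes an adhesion receptor of cytotoxic T and NK cells, had 6 and 12 reads in Mock and 0 in both FeSO4 libraries. It did not pass the filter and was not tested, and with 3 counts allowed over the FeSO4 group it was at least 5.17-fold lower. This limit was 6.82-fold without Mock replicate 1 and 3.51-fold without Mock replicate 2.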
